A study of Mus musculus with 6 samples.

Results

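The oligoadenylate synthetase (Oas) family was followed in germline stem cell preparations of newborn CD1 mice, as 9 genes read by 17 of the 45281 probes of an Illumina Mouse WG-6 v2.0 expression array. The members are Oas1a, Oas1c, Oas1d, Oas1e, Oas1g, Oas1h, Oas2, Oas3 and Oasl1, and every probe that the platform annotation assigns to one of them was taken. The family was chosen because Oas1d was among the genes with the largest excess in ovarian cells in these same data, so the values of Oas1d are given as a description with no test. Its paralogues were chosen by name. Ovaries of mice aged 3 days gave the female germline stem cells (FGSC) and testes of mice aged 6 days the spermatogonial stem cells (SSC), and 3 arrays were run for each. Both groups were CD1, and the labels name no genetic change and no treatment. The sources used here give no account of enrichment or culture and do not say whether replicates were separate animals or isolations, so p-values cover the spread of these 6 samples alone, and that spread may be technical. The groups differ in organ, sex and age at once, and these cannot be told apart.

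Oas proteins bind double-stranded RNA. The enzymes of the family then join ATP into short chains of adenylate, which switch on the ribonuclease RNase L and so stop protein synthesis in infected cells, and most Oas genes are induced by interferon. Mice carry many copies of Oas1 where humans have a single gene. Oas1a and Oas1g encode active enzymes, whereas Oas1d is an oocyte protein without synthetase activity, and mice that lack it have reduced female fertility.

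Of all array values, 39.2% had a detection p-value under 0.05, which means a signal above nearly all negative controls of that array. FGSC replicate 3 stood apart from the other arrays, with 16198 detected probes against 17003 to 18823, and with a correlation across genes of 0.956 to the least similar FGSC array, where the lowest within SSC was 0.986. For some of the genes affected by it, but not all, the difference is also given without it. Oocyte genes were mostly higher in FGSC, with 21 of 22 tested genes of a list of 25 called higher. Lower were 0 (0 also at an unadjusted limma p under 0.05). Of the higher genes, 8 were undetected in SSC and so could enter the test only through FGSC, which fixed their direction. The germ cell gene Ddx4 was detected on all 6 arrays but was lower in FGSC, by -0.55 in log2 (limma, adjusted p = 0.00212). Germ cell genes went both ways, with 3 of 8 tested higher and 3 lower. Nanos3 was undetected on all FGSC arrays and so could enter only through SSC. Spermatogonial genes were lower in 12 of 14 tested, with Ret differing by -4.87 ± 0.09 (log2, standard error, SE). Of these lower genes, 3 were undetected in FGSC and so could enter only through SSC. In all, 6632 of 10628 genes tested differed between the groups by limma with Benjamini-Hochberg adjustment, which is 62.4%. Higher in FGSC were 30.9% and lower 31.5%. With median scaling, which moved the median of all genes to -0.12, 39.1% of the called genes were higher in place of 49.6%. Differences below are in log2 units, FGSC less SSC, with the SE of the fit. In such bulk samples fewer cells of a type and less RNA per cell cannot be told apart.

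Oas1d was bright on every FGSC array and at background on SSC arrays by both of its probes. The brighter probe (ILMN_2929966) gave raw signals of 5492, 5333 and 4521 on FGSC replicates 1 to 3 and of 96.0, 94.9 and 97.3 on SSC replicates 1 to 3. All FGSC values lay far above all SSC values, and the probe was detected on 3 FGSC arrays and on 0 SSC arrays. On the normalized log2 scale its mean was 12.33 ± 0.11 (SD, n = 3) on FGSC arrays and 4.76 ± 0.03 on SSC arrays, a difference of 7.57 ± 0.09. As SSC gave only a bound, the level in FGSC was at least 190.0-fold higher. This bound rests on the background correction: the ratio of the mean raw signals was 53.3, and without background correction the log2 difference was 5.76. The other probe (ILMN_2737613) gave 1768, 1776 and 1798 in FGSC and 102.6, 90.5 and 83.8 in SSC. It was detected on 1 of the SSC arrays, at a detection p-value of 0.0427, and its difference was 5.98. Both probes thus put every FGSC array above every SSC array, with differences that were unequal in size. The brighter probe had its lowest raw signal on FGSC replicate 3, yet its highest normalized value there after quantile normalization, 12.45 against 12.23 and 12.31, and without that replicate the difference was 7.51.

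Oas1c, another copy of Oas1, was also high in FGSC and undetected in SSC. Its probe (ILMN_2801770) gave 327.3, 342.5 and 346.0 on the FGSC arrays and 95.5, 92.8 and 95.9 on the SSC arrays. The FGSC signals were close together and the groups did not overlap. The difference was 3.34 ± 0.18 (limma, adjusted p = 1.09e-05), with 8.07 ± 0.36 (SD, n = 3) in FGSC, and Oas1c was at least 10.0-fold higher there. The ratio of the mean raw signals was 3.57. Without background correction the difference shrank to 1.88, without FGSC replicate 3 it was 3.13, and it was called in all 16 alternatives that gave a value.

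Oas1e, the next gene to Oas1c on the chromosome, was a weaker member of the same group. Its probe (ILMN_1228312) gave 153.3, 132.0 and 101.2 on FGSC replicates 1 to 3, against 89.5, 91.3 and 90.5 on SSC replicates 1 to 3. Every FGSC value was above every SSC value, but replicate 3 lay only a little above background, with a detection p-value of 0.0171. The difference was 0.96 ± 0.25 (limma, adjusted p = 0.0158) and the bound at least 1.84-fold. It was 1.26 without FGSC replicate 3 and 0.88 without FGSC replicate 2, where the call was lost (adjusted p = 0.0560). It was 0.50 with the larger offset and 0.51 without background correction, and over all alternatives the adjusted p lay between 0.000118 and 0.0560.

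Oas1c and Oas1e could pass the detection filter only through FGSC, since neither was detected on an SSC array, so the direction of their calls was fixed by that filter. Of the 3 members tested beside Oas1d, 2 were called higher, where 30.9% of all genes were, and nothing is read from that share. In raw signal 4 of the 17 probes, both of Oas1d among them, did not overlap between the groups, where 30.3% of all probes did not. Probes detected on all FGSC arrays and no SSC array were 3 of the 17, the brighter Oas1d probe among them, and 1.56% of all probes. In the fit over all 45281 probes without the detection filter, in which 23.9% of probes were called, 11.8% higher and 12.1% lower, the adjusted p was 6.56e-05 for Oas1c and 0.0495 for Oas1e.

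**Figure D1:**
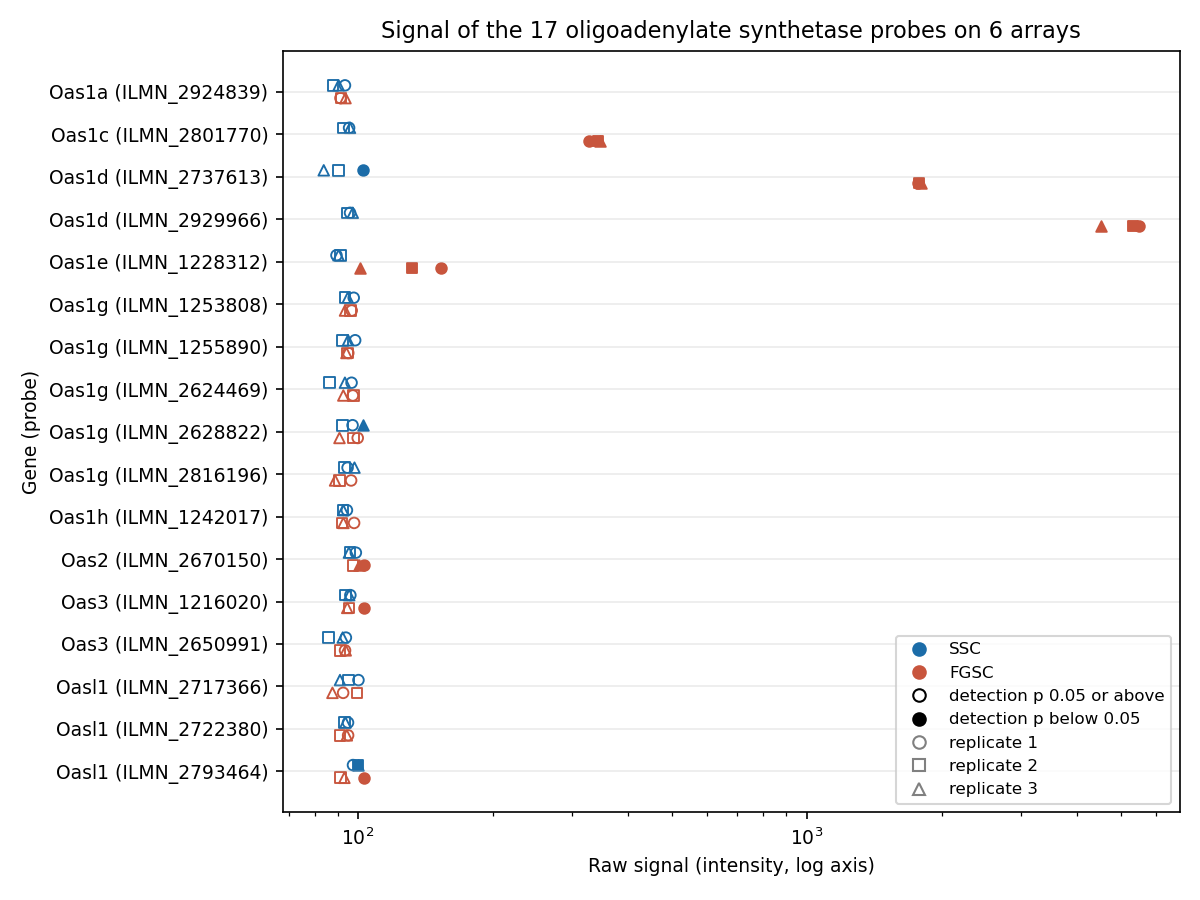
Raw signal (log axis) of each of the 17 family probes on 6 arrays, SSC in blue and FGSC in red, with marker shapes for replicates and filled markers for a detection p-value under 0.05. The FGSC markers of Oas1c, Oas1d and Oas1e lie to the right of their SSC markers, while all values of the other 13 probes lie between 85.9 and 103.1.

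The interferon-induced enzymes were at background in both groups. Oas1a, an active synthetase, gave 91.3, 91.5 and 93.7 in FGSC and 93.5, 88.0 and 90.5 in SSC, and was detected on no array. The groups overlapped, and no fold is given where both are below background. Oas1g, the other active Oas1 enzyme, had 5 probes with signals between 86.4 and 102.6, detected once in all, by 1 probe on SSC replicate 3. The 5 probes of this gene thus gave the same picture as the single probe of Oas1a. Oas2, an enzyme with 2 synthetase units, gave 102.9, 97.4 and 100.2 in FGSC and 98.9, 95.9 and 95.4 in SSC. It was detected on 2 FGSC arrays and on no SSC array, which is below the filter of 3 arrays, and FGSC replicate 2 lay below SSC replicate 1. Oas3, the long synthetase that is the main activator of RNase L in human cells, gave 103.1, 95.5 and 94.6 in FGSC and 96.1, 93.8 and 95.5 in SSC on its brighter probe. That probe was detected on FGSC replicate 1 and on no other array, and the other probe on none.

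Oas1h, a further Oas1 copy, was undetected on all 6 arrays, with signals from 92.1 to 98.0. Oasl1, an Oas-like protein without synthetase activity that represses translation of the interferon regulator Irf7 in mice, had 3 probes with signals between 87.7 and 103.0. A single Oasl1 probe (ILMN_2793464) passed the filter, with 103.0, 91.4 and 93.2 in FGSC and 97.4, 100.01 and 100.2 in SSC. It was detected on 2 SSC arrays and 1 FGSC array, the groups overlapped, and its difference of -0.05 ± 0.08 was not called (limma, adjusted p = 0.626; 95% confidence interval -0.25 to 0.15).

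Across these 6 genes, 7 of 78 array values (8.97%) had a detection p-value under 0.05, where 39.2% of all array values did. Their 13 differences lay between -0.06 and 0.11, with a median of 0.01, and 7 were above 0. In the limma fit over all probes without the detection filter 0 of the 13 were called, 0 had an unadjusted p under 0.05, and the lowest adjusted p was 0.219. In that fit their 95% confidence intervals all lay between -0.20 and 0.24, but a signal at background cannot show a change of a level below it. In total, 4 of the 9 genes and 5 of the 17 probes passed the filter, and 9 of the 17 were detected on none of the 6 arrays, as were 47.3% of all probes. The members other than Oas1g, Oasl1, Oas1d and Oas3 had a single probe each. Probe sequences were not used here, so whether a probe also binds RNA of a near-identical Oas1 copy was not tested.

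The family genes Oas1b, Oas1f and Oasl2, outside the list of members, were read as well. Oas1b, a flavivirus resistance gene that the reference annotates as a transcribed pseudogene, and Oas1f were detected on no array. Oasl2, an Oas-like gene, had 1 of 3 probes above the filter, at 108.3, 101.1 and 114.9 in SSC and 98.8, 95.9 and 92.7 in FGSC. That probe was detected on all SSC arrays and no FGSC array and every SSC value was higher, so the filter fixed its direction. Its difference of -0.24 ± 0.10 was not called (adjusted p = 0.0861), nor was it in the limma fit over all probes (adjusted p = 0.124). The other probes gave -0.02 and -0.09 and were not called in that fit. Oasl2 was called with the deposited processed values (-0.36, adjusted p = 0.0278) and with a trended, robust fit (adjusted p = 0.0349).

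Upstream sequence was available for 6 of the 9 members, in windows of 250 bases before to 50 bases after the annotated start (RefSeq, GRCm38.p6). The core of the interferon-stimulated response element, searched as GAAA, any 2 bases and GAAA on both strands, was found in 3.44% of 32851 such windows and in 4 of these 6, those of Oas1a, Oas1c, Oas1g and Oas3. It was not found in the windows of Oas1h and Oasl1. The windows of Oas1c, high in FGSC, and of Oas1a and Oas1g, at background in both groups, are shown because they share the same letters. Capitals mark the bases covered by matches, which overlap each other.
Oas1c, chr5:120812465-120812764, minus strand: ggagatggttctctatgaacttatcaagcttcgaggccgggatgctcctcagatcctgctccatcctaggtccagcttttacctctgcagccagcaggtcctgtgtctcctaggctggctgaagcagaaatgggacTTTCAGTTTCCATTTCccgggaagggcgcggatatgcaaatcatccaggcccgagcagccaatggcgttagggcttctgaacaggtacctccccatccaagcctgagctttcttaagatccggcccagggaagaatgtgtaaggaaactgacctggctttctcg
Oas1a, chr5:120907476-120907775, minus strand: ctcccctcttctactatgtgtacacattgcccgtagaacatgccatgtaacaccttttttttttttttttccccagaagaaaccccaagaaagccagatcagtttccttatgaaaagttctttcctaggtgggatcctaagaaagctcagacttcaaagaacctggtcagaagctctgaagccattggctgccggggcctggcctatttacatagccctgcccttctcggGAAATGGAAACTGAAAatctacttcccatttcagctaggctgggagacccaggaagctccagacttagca
Oas1g, chr5:120887564-120887863, minus strand: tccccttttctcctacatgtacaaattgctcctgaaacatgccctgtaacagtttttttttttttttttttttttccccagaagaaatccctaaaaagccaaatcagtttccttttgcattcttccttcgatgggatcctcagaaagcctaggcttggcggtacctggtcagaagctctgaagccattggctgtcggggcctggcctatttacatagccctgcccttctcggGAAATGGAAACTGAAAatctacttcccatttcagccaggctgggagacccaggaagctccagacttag
In Oas1a and Oas1g the matches cover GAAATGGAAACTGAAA, starting at bases 231 and 233 of the window. In Oas1c they cover TTTCAGTTTCCATTTC from base 137, which is the same 16 bases on the other strand. This stretch occurred in 7 of all 32851 windows, and the other 4 belong to Apol9a and Apol9b. The E-box, searched as CANNTG, which reads the same on both strands, was in 72.3% of all windows and in 2 of the 6 member windows, those of Oas1h and Oasl1. A match is a description of letters and not of a bound site.

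On chromosome 5 the 3 genes that were high in FGSC do not lie side by side. In RefSeq order the block runs Oas2, Oas3, Oas1e, Oas1c, Oas1b, Oas1f, Oas1h, Oas1g, Oas1a, Gm7573 and Oas1d. Oas1e and Oas1c are neighbours, whereas 5 genes at background in both groups and the pseudogene Gm7573, which had no probe here, stand between Oas1c and Oas1d. Of the 4 genes on each side of the block, Cfap73 and Gm32185 had no probe here. Dtx1, a Notch regulator next to Oas2, gave 100.8, 101.7 and 111.2 in FGSC and 186.9, 169.6 and 198.1 in SSC, so it went the other way, with a difference of -1.56 ± 0.22 (adjusted p = 0.000853). The signal of 111.2, on FGSC replicate 3, was out of order with its detection p-value of 0.509, and without that array the difference was -1.77. The RNA helicase gene Ddx54 was lower too (-1.02 ± 0.09, adjusted p = 0.000111), and Rasal1 did not pass the filter. Rph3a, which follows Oas1d and encodes an effector of vesicle release, gave 103.6, 111.0 and 101.3 in FGSC and 92.4, 93.9 and 90.1 in SSC. As it was detected only on FGSC arrays, the filter fixed its direction. Its difference was 0.34 ± 0.10 (adjusted p = 0.0198) with a bound of at least 1.22-fold, and it lost its call in 4 alternatives, among them the removal of FGSC replicate 2 (adjusted p = 0.0600). Ptpn11, which encodes the phosphatase SHP2, was not called from its brightest probe (-0.28 ± 0.36, adjusted p = 0.529). The sign of that value rested on FGSC replicate 3, where the raw signal was 567.8 against 2078 and 1730 on the other FGSC arrays, and the difference was 0.17 without it. Of its other kept probes, 1 gave 0.17 and was not called. The other gave 0.53 and was called higher in the limma fit over kept probes (adjusted p = 0.000691), with overlapping raw signals. The probe of the ribosomal gene Rpl6 was undetected on all arrays.

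**Figure D2:**
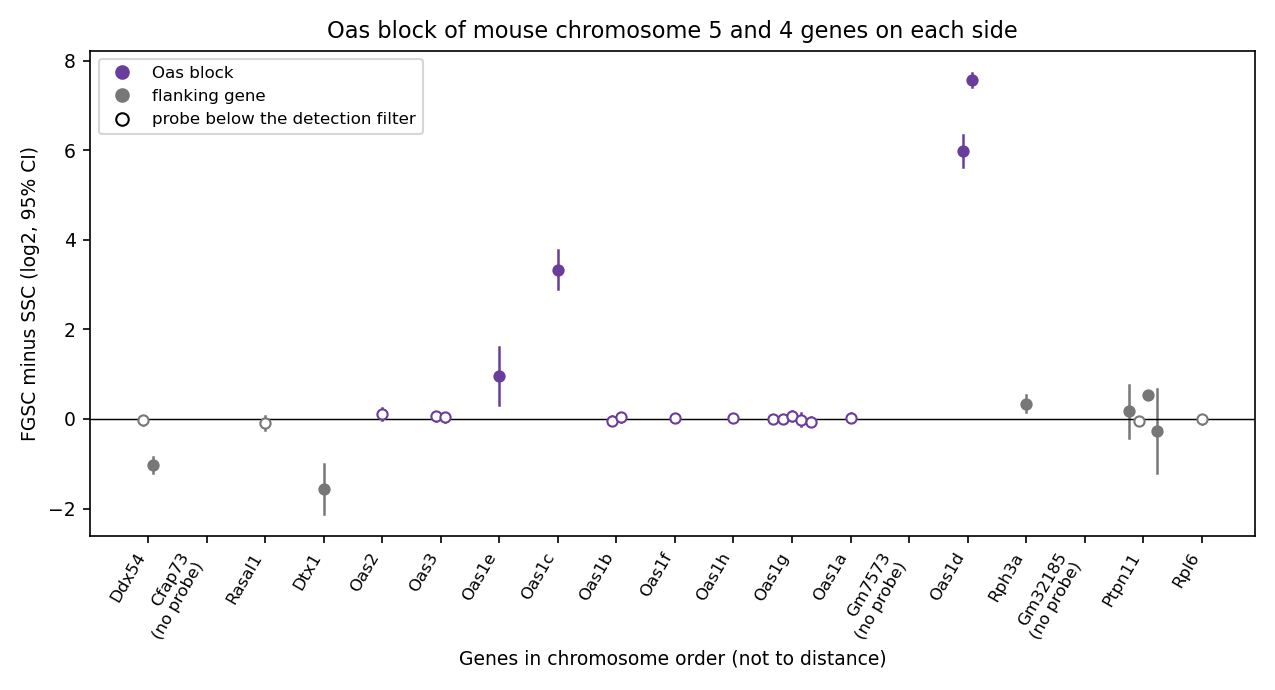
Difference FGSC minus SSC (log2, with 95% confidence interval from the fit over all probes) for each probe of the Oas block (purple) and of 4 genes on each side (grey), in chromosome order and not to distance, with open circles for probes below the detection filter. Oas1e (0.96), Oas1c (3.34) and Oas1d (5.98 and 7.57) stand above 0, and the other block genes lie within -0.06 and 0.11.

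The genes with profiles most like that of Oas1d were found by the distance between log2 values over the 6 arrays, each gene centred on its own mean, among 10627 other genes. Such a distance over 2 groups mostly reflects the size of the difference between them. The nearest was Stk32a, a protein kinase gene, at a distance of 0.70 and with a difference of 7.02 ± 0.08. It was followed by Dppa3, a maternal factor (0.85), Padi6, a gene of the lattices in oocyte cytoplasm (1.01), and Nlrp5, whose maternal protein lies under the oocyte membrane (1.54). Cd164l2 (1.97), the glutamate receptor gene Grm4 (2.43), the gap junction gene Gja4 (2.51) and Ap3b2 (2.53), a subunit of a vesicle coat, came next. Of these 8 genes, Dppa3, Padi6, Nlrp5 and Gja4 were on the oocyte list.

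**Figure D3:**
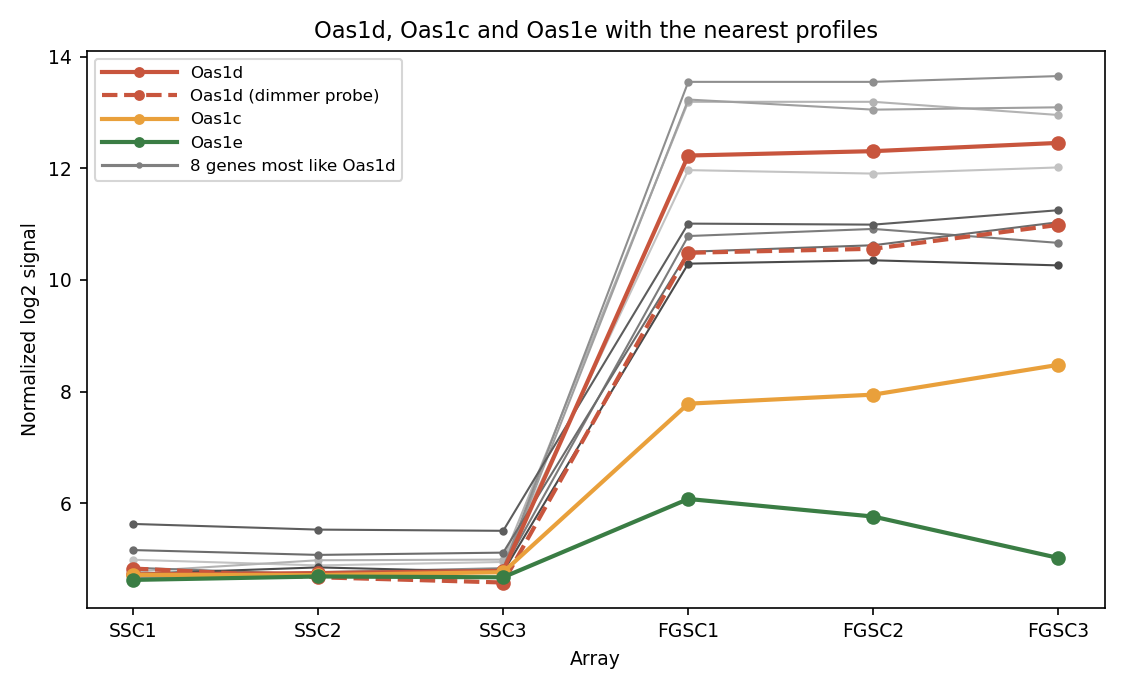
Normalized log2 signal on the 6 arrays for both probes of Oas1d, for Oas1c and Oas1e, and in grey for the 8 genes most like Oas1d. All profiles lie between 4.58 and 5.63 on the SSC arrays, and on FGSC arrays Oas1d (12.33 on average) lies above Oas1c (8.07) and Oas1e (5.62); levels of different probes are not comparable.

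Partners of the Oas enzymes had differences between -0.27 and 0.45. The list of 10 genes also holds the family genes Oas1b, Oas1f and Oasl2. Of the list 6 were tested, Oasl2 among them, with 2 higher and 0 lower (0 also at an unadjusted limma p under 0.05). Among all genes 30.9% were higher and 31.5% lower. The median difference of the list was -0.04, where that of all genes was -0.003. Pde12 and Akap7, which both degrade the adenylate chains, were higher by 0.42 ± 0.10 (adjusted p = 0.0117) and 0.45 ± 0.11 (adjusted p = 0.0112). In raw signal their groups overlapped, and both calls were lost with median scaling (adjusted p = 0.574 and 0.362). Cgas, the DNA sensor related to Oas proteins, gave -0.27 ± 0.12 (adjusted p = 0.0913), Trim25 -0.14 ± 0.12 and the RNA sensor gene Ddx58 0.06 ± 0.07, none of them called. Cgas was called lower without SSC replicate 3 (-0.36, adjusted p = 0.0455) and without FGSC replicate 3 (-0.35, adjusted p = 0.0402), whereas its other kept probe gave 0.07 and was not called. Abce1, which encodes the RNase L inhibitor, had 3 probes and none passed the filter, and the gene of RNase L itself was not analysed here.

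Sensors of foreign nucleic acid went both ways. Among the 9 tested of 15 listed, 2 were higher in FGSC and 2 lower, and the median difference was 0.12. The shares of all genes were 30.9% higher and 31.5% lower. Eif2ak2, the interferon-induced kinase PKR that is activated by double-stranded RNA as Oas is, gave 119.7, 119.7 and 114.8 in FGSC and 337.7, 283.4 and 256.6 in SSC, a difference of -2.21 ± 0.11 (adjusted p = 9.65e-06). Mavs, the mitochondrial adaptor of RNA sensing, gave 107.9, 102.6 and 105.4 in FGSC and 239.0, 216.6 and 190.9 in SSC (-1.96 ± 0.12, adjusted p = 1.60e-05). Neither gene overlapped between the groups. The kinase gene Tbk1 was higher by 0.66 ± 0.11 (adjusted p = 0.00230) and the sensor gene Zbp1 by 0.57 ± 0.19 (adjusted p = 0.0375). Both overlapped between the groups in raw signal, and the ratios of the mean raw signals were 1.60 and 1.09. The call of Zbp1 was lost in 9 alternatives, including the removal of FGSC replicate 2 (adjusted p = 0.0555) and of each SSC array, and that of Tbk1 with median scaling (adjusted p = 0.0964). The count of higher sensors was therefore 0 with median scaling and 1 without FGSC replicate 2 or without any of the SSC arrays, and 4 with the mean or the second brightest of the kept probes, while it was 3 without FGSC replicate 3.

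Receptors and transducers of interferon were more often called lower than higher. Among the 11 tested of 14 listed, 1 was higher and 5 were lower, and the median difference was -0.19. Of all genes, 30.9% were higher and 31.5% lower, and whether the list departs from these shares was not tested. The receptor chain gene Ifngr2 differed by -2.42 ± 0.17 (adjusted p = 3.13e-05), with smaller differences on its other kept probes (-1.19 and -0.65), and the feedback inhibitor gene Socs3 by -3.63 ± 0.10 (adjusted p = 8.91e-07). The kinase gene Jak2 went the other way, by 2.38 ± 0.12 on 1 probe (adjusted p = 1.02e-05) and 1.73 on the other. Irf9, part of the factor that binds interferon response elements, was lower as well (-0.97 ± 0.14, adjusted p = 0.00105). With the stricter filter only 5 genes of this list were tested and 2 were lower, and with the second brightest probe 8 of 11 were.

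Genes induced by interferon together with the Oas genes were lower in FGSC or not called, with 1 exception. Of 36 listed genes 34 had a probe and 17 could be tested. In FGSC 1 was higher and 8 were lower, where 30.9% and 31.5% of all genes were, and the median difference was -0.39. The other 17 with a probe, Isg15, Ifit1, Mx1 and Irf7 among them, did not pass the filter. Ifi27 gave 163.0, 164.9 and 137.0 in FGSC and 1414, 1051 and 1119 in SSC, with no overlap (-3.89 ± 0.09, adjusted p = 6.36e-07). The GTPase gene Irgm1 differed by -2.38 ± 0.25 (adjusted p = 0.000225), but its other kept probe gave -0.17, with an adjusted p of 0.0652 in the limma fit over kept probes and 0.00792 in that over all probes. Lgals3bp was higher by 0.33 ± 0.10 (adjusted p = 0.0238), with overlapping raw signals, and lost its call in 5 alternatives, among them the removal of FGSC replicate 2 (adjusted p = 0.0719), of SSC replicate 2 (0.0834) or of SSC replicate 3 (0.0712). Of the 17 genes, 4 were undetected in FGSC and could enter only through SSC. With a detection p-value under 0.01 on all arrays, 3 of only 8 tested genes were lower and 0 higher. Leukocyte genes, whose cells hold Oas RNA, were called lower in 6 of 10 tested and higher in 0 (0 also at an unadjusted limma p under 0.05), and 3 of the 6, Cx3cr1, C1qb and Mrc1, were undetected in FGSC and so could enter only through SSC. The count of lower leukocyte genes was 3 without SSC replicate 2 and with the replicate block. Their summed raw signal was 1221 to 1331 in SSC and 1008 to 1080 in FGSC, while Ptprc, Adgre1, Cd14 and Tyrobp were among the 6 genes of that list not tested. Among genes of other cells, 8 of 10 tested ovarian somatic, 5 of 10 testis somatic and 5 of 10 endothelial genes were lower, and 1, 2 and 1 were higher. Undetected in FGSC, and so able to enter only through SSC, were 6, 5 and 4 of the tested genes of these lists. Lower ovarian somatic genes numbered 5 without SSC replicate 2 or FGSC replicate 1, and higher testis somatic genes 0 without SSC replicate 2 or 3 or FGSC replicate 1 or 2. The largest fall on the ovarian list, that of Amh (-3.81), came from a gene detected on all SSC arrays and no FGSC array. Genes of that list can thus be on in the testis samples, and a list name does not fix the organ. Of 8 tested germ cell genes 3 were higher and 3 lower. The part of any of these cells in the lower interferon genes was not tested.

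**Figure D4:**
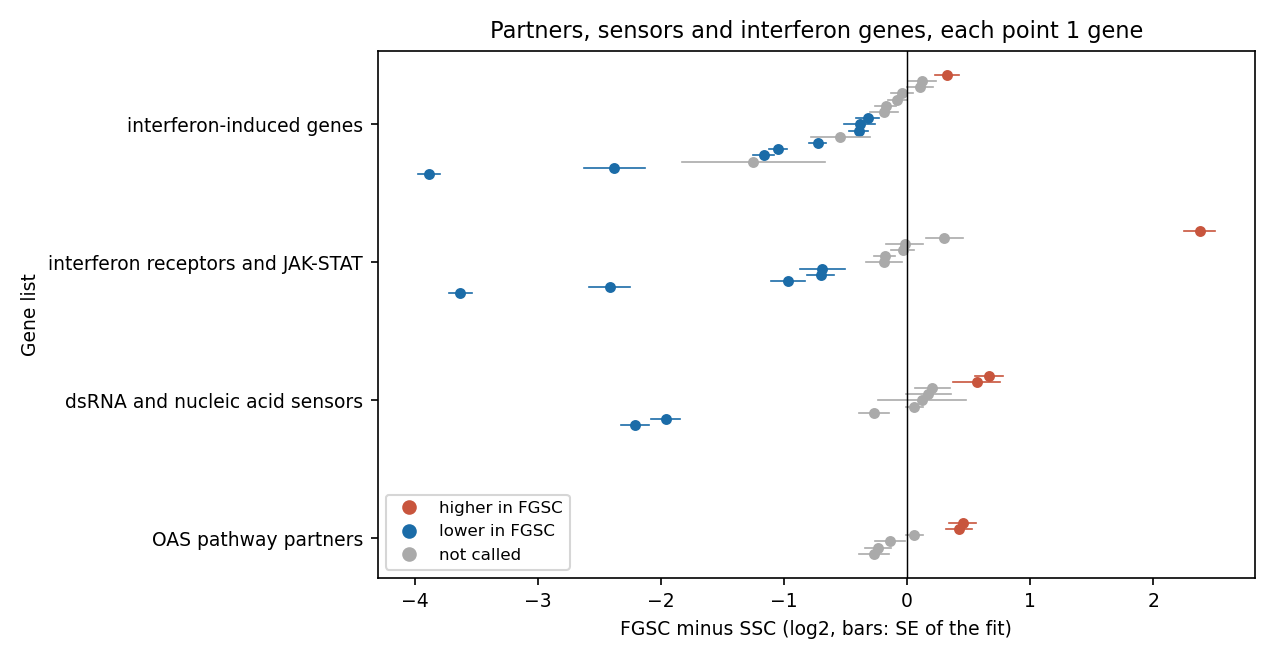
Difference FGSC minus SSC (log2, bars give the SE of the fit) for each tested gene of 4 lists, red where called higher, blue where called lower and grey where not called. Among interferon-induced genes 8 of 17 are blue and 1 is red, with Ifi27 at -3.89, and the partners lie between -0.27 and 0.45.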

How the data were processed

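RNA was measured on 6 single-colour Illumina arrays, 3 of FGSC and 3 of SSC, grouped by sample title. The authors deposited 1 intensity and 1 detection p-value per probe on every array. Per the file headers the intensity is not normalized, and its lowest value was 75.1, so it was read as not background-subtracted. The deposited processed intensity table, used as an alternative only, states no scale or centring. It was read as linear and quantile-normalized. The submitters' processing notes name lumi, with no role.

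Signals were background-corrected with the background inferred from detection p-values, given an offset of 16, quantile-normalized and logged to base 2 (neqc of limma 3.58.1 in R 4.3.3). The 18860 probes that were detected, at a detection p-value under 0.05, on no fewer than 3 arrays were kept, and the kept probe with the highest mean stood for its gene. Symbols came from the platform annotation, updated by gene ID through RefSeq (34807 probes matched), with 10378 probes unnamed. Groups were compared with lmFit and eBayes without covariates. P-values were adjusted by Benjamini-Hochberg over all genes or probes, and adjusted p under 0.05 was called. A group with no detected array gave a bound, each of its arrays set to the higher of its lowest detected signal and the probe's own value. An exact permutation test of 3 against 3 cannot go below p = 0.1, so none was run. The number of arrays limits the precision. No family probe had a signal out of order with its detection p-value, unlike 330 other probes.

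Simulated data had log2 differences of 0.5, 1 and 2 planted in 67, 67 and 66 of 10628 genes. The test recovered 29.9%, 79.1% and 95.5% of these, with 6 false calls, and made 0 calls with nothing planted. Far fewer genes were changed in the simulation than the 6632 called between FGSC and SSC, and the Benjamini-Hochberg cutoff depends on that number. Power and error of the reported calls were not estimated. The members, the 11 gene lists, the tests and the alternatives were chosen with earlier results of these data known. Named were all members, the 8 genes most like Oas1d, the flanking genes, all partners and from each other interferon or sensor list up to 2 called genes per direction. Irf9, Isg15, Ifit1, Mx1, Irf7, Ret, Ddx4, Nanos3 and Amh were named after their values were seen.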

Additional observations from a re-analysis of the deposited data

How the results depend on the processing

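Of the family, Oas1d kept its direction in all 16 alternatives that gave a value, with differences from 5.76 without background correction to 7.62, and Oas1c likewise from 1.88 to 3.48, called each time. Oas1e lay between 0.50 and 1.26 and lost its call only without FGSC replicate 2, and Oasl1 was not called in any (-0.11 to -0.007). As Oas1d was chosen for its excess and the filter fixed the directions of Oas1c and Oas1e, a kept direction is no independent support. With a detection p-value under 0.01 on all arrays no member was left, and the count of called genes was 4396 in place of 6632 and that of called probes 6826 in place of 11126, over fewer features tested. Leaving out 1 array at a time gave 5781 to 6993 called genes and 9519 to 11606 called probes. Ptpn11 turned to 0.53 with its second brightest probe, to 0.14 with the mean of its kept probes and to 0.17 without FGSC replicate 3, and Cgas to 0.07 with its second brightest probe. The cause was not tested. The labels do not say whether the replicate numbers pair the samples. The deviations of same-numbered arrays correlated at -0.20, -0.05 and -0.22, and those of differently numbered arrays at -0.25 to 0.32. Deviations from a mean of 3 arrays depend on one another, so these values cannot settle whether samples are paired. With the replicate block 5928 genes were called. Among 53 values and counts of single genes and lists, 807 of 871 settings kept the side of the threshold, or a count within 1.5 times. A value called in neither setting counted as kept even where its sign turned, as in settings of Ptpn11 and Cgas. In 1 of the 871 settings the sign turned with a call on at least 1 side, and that setting did not count as kept. The second brightest probe of Ptpn11 was called higher in the limma fit over kept probes (adjusted p = 0.000691). For Oas1d, which had no test, a shift smaller than its SD within a group counted as kept. Signals at background limit what can be said of Oas1a, Oas1g, Oas1h, Oas2, Oas3 and Oasl1.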
